A study of Rattus norvegicus with 20 samples.

Results

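Blood drawn 24 h after acetaminophen (APAP) was compared between the rats in which the drug raised serum alanine aminotransferase (ALT, an enzyme that leaks from injured hepatocytes) most and those in which it raised it least. All animals were male Wistar rats, an outbred strain, given 1200 mg/kg APAP by mouth after a 12 h fast, with food withheld for 2 h more. From 35 dosed rats, the methods took the 5 with the highest ALT at 24 h as the susceptible sub-group and the 5 with the lowest as the resistant sub-group. The comparison used the 10 arrays labelled postdose (5 susceptible, 5 resistant) of 20 in the series, with 1 rat per array. The other 10 arrays held blood of the same 2 sub-groups taken before dosing, with 1 week of recovery in between, and no vehicle-treated arrays were analysed here. Both sides shared dose, fast, bleeding time and bleeding site, so that the contrast was between 2 extents of liver injury under the same drug, and the sub-groups were ranked on the injury of these same rats. The labels name the retro-orbital plexus as the bleeding site for all samples, while the methods name the inferior vena cava for postdose blood. The labels call the samples biological replicates, so that p-values measure the spread between these rats. Red cells were lysed before total RNA was extracted, so that the RNA came mainly from leukocytes, platelets and remaining reticulocytes. In such bulk RNA, fewer cells of a type and less RNA per cell cannot be told apart.

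The question put to these arrays was how the blood transcriptome differed between animals with severe and with mild APAP injury. APAP is toxic to the liver through a reactive quinone imine that depletes glutathione, damages mitochondria and kills hepatocytes. Dying hepatocytes release DNA, RNA and proteins that sentinel receptors of leukocytes recognise, and neutrophils and monocytes are recruited from blood to the injured liver. Interferons are cytokines made on such recognition as well as on infection. They act through cell surface receptors whose signals reach the nucleus and switch on the interferon-stimulated genes. These encode RNA sensors, antiviral effectors, ubiquitin-like modifiers, guanylate-binding GTPases and the chemokines that bind Cxcr3 on T cells and natural killer cells.

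Signals are given below as log2 of the deposited intensity with the median of every array set to 1000, and a difference is the susceptible mean minus the resistant mean on that scale. Of 30469 probe sets tested, 34 passed an adjusted p under 0.05 (limma, Benjamini-Hochberg over all probe sets). Higher signals in susceptible rats made up 32 of these, or 0.105% of probe sets tested, and lower signals 2, or 0.00656%. The sub-groups did not overlap for any of the 34, meaning that all 5 arrays of 1 side lay beyond all 5 of the other. Probe sets chosen for so small a p are nearly bound to separate in this way, so that this is no separate support. Over 14049 genes, each by 1 probe set, 1.92% were higher and 0.755% lower in susceptible rats without overlap. The 34 comprised 23 probe sets with 1 gene symbol, standing for 21 genes, 2 with several symbols and 9 with none, which are unnamed here. All 21 genes were higher in susceptible rats. The number of calls depended on single arrays. When any of resistant replicates 1 and 2 or susceptible replicates 1 and 5 was left out, limma called 0 probe sets, although 2097 to 2444 had an unadjusted p under 0.05 in these 4 fits. The count was 23 without resistant replicate 3, 3 without replicate 4 and 1 without replicate 5, and it was 3, 4 and 56 without susceptible replicates 2, 3 and 4. Of the 34 calls, 19 were kept without resistant replicate 3 and 30 without susceptible replicate 4. The sign of the difference was the same in each of these fits for all 21 genes.

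**Figure D1:**
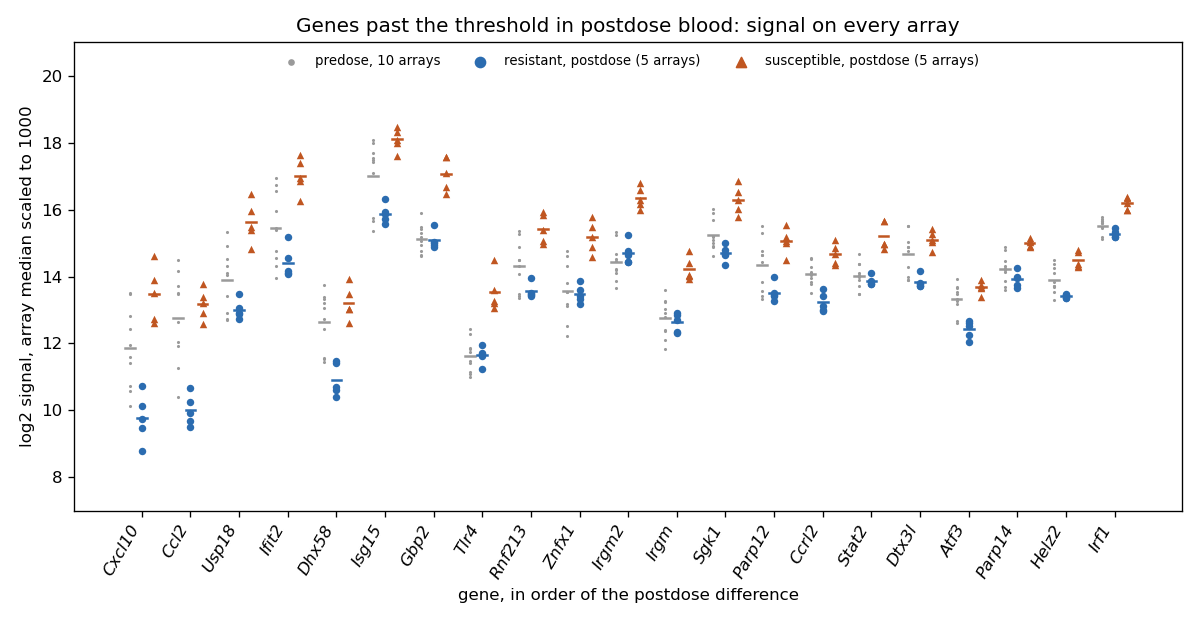
Log2 signal (array median scaled to 1000) of the 21 named genes past the threshold, on every array. Gray dots are the 10 predose arrays, blue circles the 5 resistant and orange triangles the 5 susceptible postdose arrays, and short lines are means. For each gene the 5 susceptible points lie above the 5 resistant points, and the difference of the means is 3.71 for Cxcl10 and 3.17 for Ccl2.

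Chemokines led the list by size. Cxcl10, the interferon-induced ligand of Cxcr3, had log2 signals of 10.12, 9.74, 10.73, 9.46 and 8.77 in resistant replicates 1 to 5 and of 13.90, 13.52, 14.62, 12.72 and 12.60 in susceptible replicates 1 to 5. The lowest susceptible array thus stood well above the highest resistant one, and the difference of 3.71 ± 0.46 (standard error, n = 5 and 5) was 13.1-fold (adjusted p = 0.0318, limma). Ccl2, which draws monocytes out of marrow and blood into injured tissue, read 10.25, 9.68, 9.92, 9.50 and 10.66 in resistant rats. In susceptible rats it read 12.90, 12.59, 13.20, 13.79 and 13.40, a difference of 3.17 ± 0.28 or 9.03-fold (adjusted p = 0.0137, limma). Its spread was equal on both sides (SD 0.46). Ccrl2, an atypical receptor that presents the chemoattractant chemerin, went from 13.23 ± 0.29 in resistant to 14.68 ± 0.31 (SD) in susceptible rats, a difference of 1.45.

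Ubiquitin-like modification by Isg15 was represented by the modifier and by the protease that removes it. Isg15 read 15.88, 15.94, 16.32, 15.56 and 15.72 in resistant and 18.48, 18.00, 18.33, 17.59 and 18.09 in susceptible rats. With a difference of 2.21 ± 0.20 it shared the smallest adjusted p, 0.0137 (limma), with Ccl2. Usp18, which strips Isg15 from proteins and also restrains the interferon receptor, differed by 2.61 ± 0.29, from 13.01 ± 0.28 to 15.62 ± 0.61 (SD). Both genes were thus among the 12 largest differences.

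RNA sensing and antiviral effectors formed the next set. Ifit2, which binds viral RNA and blocks its translation, read 14.09, 14.55, 15.18, 14.16 and 14.09 in resistant and 17.39, 16.93, 17.62, 16.27 and 16.85 in susceptible rats. Its 2 probe sets differed by 2.60 and 2.15, and both passed. Dhx58, the helicase LGP2 that tunes the RNA sensors, differed by 2.30 ± 0.30, with 1.77 for the least of its 3 probe sets. Znfx1, a helicase that binds viral RNA at mitochondria, differed by 1.71 ± 0.24, and Helz2, a helicase and nuclear receptor coactivator, by 1.09 ± 0.13. Helz2 was the tightest of all 21 in resistant rats, at 13.42 ± 0.06 (SD, n = 5).

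The interferon-induced GTPases Gbp2, Irgm and Irgm2 guard cells against vacuolar pathogens. Gbp2 read 14.90, 15.04, 15.55, 14.96 and 15.00 in resistant and 17.57, 17.10, 17.56, 16.67 and 16.47 in susceptible rats, a difference of 1.99 ± 0.25. Irgm2 differed by 1.66 ± 0.21 and Irgm by 1.60 ± 0.20. A further probe set that the annotation assigns to Igtpl1, Irgm2 and Igtp together differed by 1.76. These are close paralogs, so that their probe sets cannot be taken as separate genes.

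Of the transcription factors, Stat2, which carries the signal of type I interferon receptors, differed by 1.34 ± 0.20 and its second probe set by 1.09. Irf1, induced by type II interferon and an activator of class I antigen presentation, differed by 0.91 ± 0.12, the least of the 21, yet its resistant arrays (15.28 ± 0.11, SD) and susceptible arrays (16.19 ± 0.19) kept apart. Atf3, a stress-induced repressor of inflammatory genes, differed by 1.26 ± 0.15. The adjusted p was 0.0496 for Stat2 and 0.0318 for Irf1 and Atf3 (limma).

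ADP-ribosylation and ubiquitylation enzymes were also among the calls. Parp12 differed by 1.53 ± 0.21, Parp14 by 1.09 ± 0.13, and Dtx3l, a ubiquitin ligase that works with Parp9, by 1.27 ± 0.16. Rnf213, a very large ubiquitin ligase with antibacterial activity, differed by 1.87 ± 0.22, and both of its probe sets passed. The remaining named calls were Tlr4, the receptor of bacterial lipopolysaccharide and of some danger signals, and Sgk1, a kinase induced by serum and glucocorticoids. Tlr4 read 11.97, 11.71, 11.62, 11.22 and 11.69 in resistant and 13.59, 13.06, 14.48, 13.26 and 13.22 in susceptible rats, a difference of 1.88 ± 0.27 (adjusted p = 0.0473, limma). Sgk1 differed by 1.60 ± 0.21. A probe set shared by the neighbouring complement genes Cfb and C2 differed by 2.44.

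The same arrays tended to set the ends of both ranges. Among susceptible rats, replicate 3 was the highest for 14 of the 21 genes and replicate 1 for 5, and replicate 4 was the lowest for 12. Among resistant rats, replicate 3 was the highest for 13 and replicate 4 the lowest for 12. The sub-groups stayed apart for all 21 genes, which the choice of genes by a small p made nearly certain.

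Promoters of these genes were searched for the core of the interferon-stimulated response element, the DNA sequence that Irf factors bind in this family. The search was for GAAA, any 2 bases and a second GAAA, on both strands (TTTC, any 2 bases and TTTC when read on the other), in the RefSeq promoters of the GRCr8 build, each covering 250 bases before and 50 after a start. RefSeq promoters were at hand for 15 of the 21 genes. They were missing for Ccl2, Usp18, Ifit2, Dhx58, Isg15 and Atf3. A match was found in 7 of the 15 (46.7%), against 1131 of 27457 genes in all (4.12%). Of the interferon-stimulated genes described below, 16 of 26 with a promoter held it (61.5%), as did 8 of 13 genes of class I antigen processing (61.5%). Of the 7, Dtx3l held its match after the start. The stretches of 60 bases around the other 6 matches are shown because they hold the element nearest to genes that passed the test. They are written in the direction of the gene, with the match in capitals.
Cxcl10 (chr14:15988816-15988875, plus strand, match beginning 243 bases before the start): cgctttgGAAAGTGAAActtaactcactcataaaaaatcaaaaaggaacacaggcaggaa
Gbp2 (chr2:234005667-234005726, plus strand, 31 bases before): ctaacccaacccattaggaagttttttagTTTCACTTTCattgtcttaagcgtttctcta
Irgm2 (chr10:42889843-42889902, plus strand, 102 bases before): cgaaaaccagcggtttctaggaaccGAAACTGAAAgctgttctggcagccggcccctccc
Irgm (chr10:33742579-33742638, minus strand, 34 bases before): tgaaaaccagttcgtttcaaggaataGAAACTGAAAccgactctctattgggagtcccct
Parp14 (chr11:78408033-78408092, plus strand, 76 bases before): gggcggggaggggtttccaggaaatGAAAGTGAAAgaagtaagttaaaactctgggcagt
Parp12 (chr4:68850542-68850601, minus strand, 18 bases before): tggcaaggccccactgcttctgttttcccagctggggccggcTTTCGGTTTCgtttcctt
Irgm2 and Irgm carried the same 10 letters. No match in the other promoters says only that these letters were not in the window.

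Before dosing the differences of these genes were small. Over the 34 probe sets the predose difference ran from -0.49 to 0.37, and predose arrays of the 2 sub-groups overlapped for all 21 genes. Cxcl10 read 12.01 ± 1.29 in resistant and 11.71 ± 1.21 (SD) in susceptible rats before dosing, and Isg15 17.21 ± 0.89 and 16.80 ± 1.19. The postdose means of the 2 sub-groups lay on opposite sides of the predose mean for most called genes. Choosing genes by a large postdose difference favours this pattern, so that it is no separate support. The susceptible postdose mean was above the mean of the 10 predose arrays for 21 of 21 genes (median 1.09 above), and the resistant postdose mean was below it for 19 of 21 (median -0.75). Only for 6 genes did all 5 susceptible arrays exceed every predose array, and for 0 did all 5 resistant arrays lie below every predose array. These positions against the predose arrays were not counted over all genes, so that no background share can be set beside them. The difference between the postdose and the predose difference was also tested (limma, all 20 arrays). An unadjusted p under 0.05 was found for all 34 probe sets and for 2110 in all. The 34 were chosen by their postdose difference, which is part of this contrast, so that their low p is no separate support. After adjustment 0 probe sets passed (limma, all 20 arrays), the smallest adjusted p being 0.158, that of Gbp2, Helz2, Ccrl2, Irf1 and the probe set shared by Igtpl1, Irgm2 and Igtp. This fit treated the predose and postdose samples of a rat as independent. By it, no single gene was shown, after adjustment, to have a difference that arose after dosing.

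The wider family was described with a list of 37 interferon-stimulated genes, of which 33 were named on the array and all 33 were tested, each by its probe set with the highest signal. Of these, 8 passed the threshold, all higher in susceptible rats, where 20 of 14049 genes passed in that direction over the whole array (0.142%). The groups did not overlap for 27 of the 33, all higher in susceptible rats, against 270 of 14049 genes (1.92%). The median difference of the list was 1.27, that of all genes tested -0.0045, and that of the same list before dosing -0.21. Leaving out 1 array at a time kept the list's median between 1.19 and 1.38. Apart from Ifit1, with a difference of -0.14, all members had a positive difference. Dhx58 is given in the list by another probe set than above, which differed by 2.21 and did not pass (adjusted p = 0.0949, limma).

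**Figure D2:**
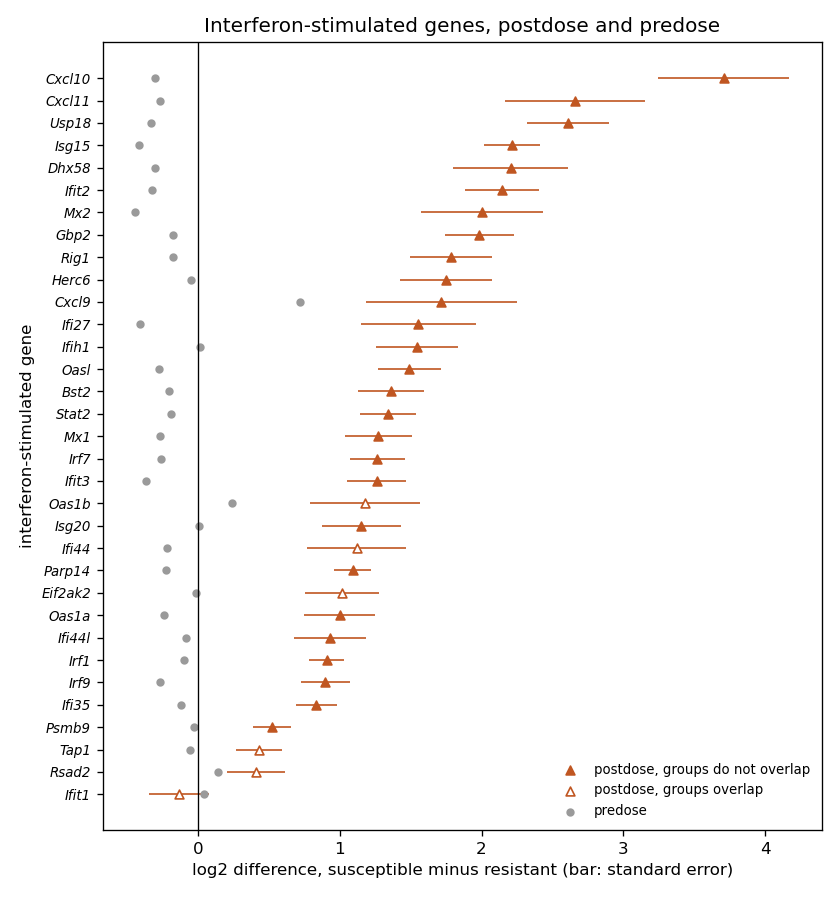
Log2 difference, susceptible minus resistant, of the 33 interferon-stimulated genes tested. Triangles are postdose differences with standard errors (filled where the 5 susceptible and 5 resistant arrays did not overlap, open where they did), and gray dots are predose differences. Postdose values reach 3.71 for Cxcl10, while most predose values lie at or slightly below 0.

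Members short of the threshold were chosen for mention after their values were seen. Irf7, the factor that amplifies type I interferon production, read 16.61, 15.92, 16.40, 16.57 and 16.62 in resistant and 18.00, 17.46, 17.95, 17.29 and 17.74 in susceptible rats (adjusted p = 0.0564, limma). The 2 cytosolic sensors of double-stranded RNA, Rig1 (RIG-I) and Ifih1 (MDA5), differed by 1.79 ± 0.29 and 1.54 ± 0.29. Their adjusted p were 0.0639 and 0.0949 (limma). Cxcl11, another ligand of Cxcr3, differed by 2.66 ± 0.49 (adjusted p = 0.0949, limma). Mx1 and Mx2, dynamin-like antiviral GTPases, differed by 1.27 and 2.01, Oasl by 1.49, Ifit3 by 1.26 and Bst2, which tethers budding virus to the cell surface, by 1.36, with adjusted p of 0.0531 to 0.177 (limma). The groups did not overlap for any of these genes. Outside the list, Ifitm3, which blocks viral entry, went from 9.33 ± 0.73 to 12.73 ± 1.11 (SD; adjusted p = 0.0643, limma).

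Not every interferon-stimulated gene followed. Rsad2 (viperin), the member of the highest signal, read 18.15, 17.45, 17.38, 18.04 and 18.23 in resistant and 18.41, 18.32, 18.04, 18.03 and 18.50 in susceptible rats. These ranges overlapped, and the difference was 0.41 ± 0.20 (adjusted p = 0.662, limma). Ifit1 read 12.08 ± 0.35 and 11.94 ± 0.31 (SD), with overlapping arrays. Its difference of -0.14 stood beside 2.15 and 2.60 for the probe sets of Ifit2 and 1.26 for Ifit3, its neighbours in the same gene family.

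**Figure D3:**
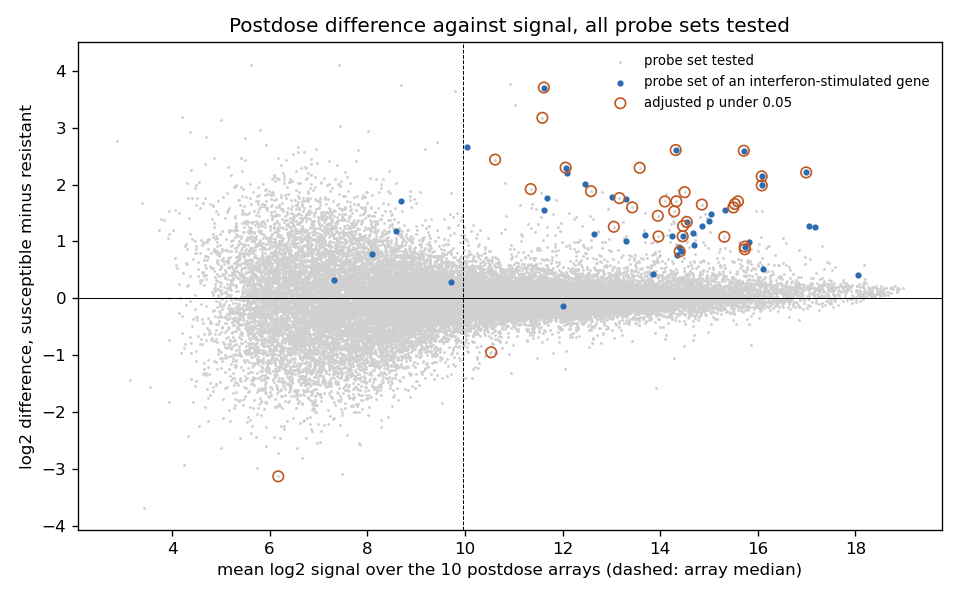
Postdose log2 difference, susceptible minus resistant, against the mean log2 signal of the 10 postdose arrays, for 30469 probe sets. Blue points are probe sets of interferon-stimulated genes and orange rings the 34 with an adjusted p under 0.05. Of the 34 rings, 33 lie to the right of the dashed line at the array median, and most blue points lie above 0.

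Antigen presentation by class I molecules, which interferons raise in most cells, showed mostly positive differences without any call. Of 16 genes tested, 0 passed (limma), 12 had an unadjusted p under 0.05 and 15 had a positive difference, with a median of 0.42 and 7 genes without overlap. Over all 14049 genes, 4.75% were higher and 3.36% lower at an unadjusted p under 0.05, and 1.92% were higher without overlap, which is the background to the counts of this and the next lists. RT1-S3, a class Ib molecule, differed by 0.85 (adjusted p = 0.0675, limma), and its 4 probe sets by 0.85 to 1.08. Class I genes of the rat are highly similar, so that these probe sets may share targets. Psme2, a subunit of the proteasome activator that interferon induces, read 15.93, 15.76, 15.96, 15.46 and 15.74 in resistant and 16.99, 16.50, 16.82, 16.75 and 16.34 in susceptible rats. Tapbp, which loads peptides onto class I molecules, differed by 0.95 ± 0.23. B2m, the shared light chain and the most abundant member, differed by 0.18 only. The class II list had a median of 0.003, with differences of 0.58 for Ctss, a lysosomal protease, and -0.06 for Cd74, the invariant chain (10 genes tested, 0 passed, limma, 2 at an unadjusted p under 0.05).

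Secreted inflammatory mediators were mixed. Of 25 cytokines and chemokines tested, Ccl2 alone passed, and 15 had a positive and 10 a negative difference (median 0.17). Higher and without overlap were also Osm, Cxcl2, Il1b and Il6. Osm (oncostatin M), an inducer of hepatic acute-phase genes, read 13.26, 13.48, 13.73, 13.51 and 14.08 in resistant and 15.54, 14.11, 15.46, 14.82 and 14.79 in susceptible rats (adjusted p = 0.169, limma). Cxcl2, which recruits neutrophils, differed by 1.84 ± 0.46, and Il1b by 0.56 ± 0.15 at a far higher signal, 17.31 ± 0.24 against 17.86 ± 0.17 (SD). Il6 differed by 1.20 at a low signal of 7.45 ± 1.14 in resistant rats. Ptgs2, the inducible cyclooxygenase, differed by 1.57 ± 0.31 (adjusted p = 0.117, limma), and complement C3 by 1.44 ± 0.25 (adjusted p = 0.0802, limma).

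Receptors of interleukin-1 went in opposite directions. Il1r2, a decoy that binds the cytokine without signaling and marks mature neutrophils, read 15.31, 15.52, 14.97, 15.29 and 15.50 in resistant and 17.77, 16.24, 17.48, 16.17 and 16.56 in susceptible rats. Il1r1, the signaling receptor, read 11.01, 11.12, 11.02, 11.21 and 10.74 in resistant and 10.49, 10.20, 10.51, 10.24 and 10.07 in susceptible rats. Neither gene overlapped, and neither passed after adjustment (differences 1.53 ± 0.32 and -0.72 ± 0.14, adjusted p = 0.169 and 0.106, limma). Il18bp, a soluble inhibitor of interleukin-18 and itself induced by interferon, differed by 1.59 ± 0.29 (adjusted p = 0.0919, limma). The list of 10 receptors and inflammasome genes had a median of 0.36, with 0.29 for Pycard, the inflammasome adaptor of the highest signal. Among 19 Toll-like receptor and danger-sensing genes only Tlr4 passed, and the median was 0.08. Clec7a, the most abundant of them, differed by 0.04. The 15 genes of the NF-kappaB pathway had a median of 0.18 and 0 calls (limma, 3 at an unadjusted p under 0.05), led by Birc3 with 0.75, while Tnfaip3, the most abundant, differed by 0.23.

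Stress and death genes were next. Of 18 genes of the endoplasmic reticulum stress response, 16 had a positive difference, 3 were higher without overlap (1.92% of all genes) and 0 passed (limma, 8 higher at an unadjusted p under 0.05, against 4.75% of all genes), with a median of 0.41. Hspa5, the chaperone BiP, read 15.60, 15.70, 15.66, 15.40 and 15.66 in resistant and 16.28, 15.98, 16.18, 16.22 and 15.82 in susceptible rats, a small and separate difference of 0.49 ± 0.12. Sdf2l1, a chaperone cofactor of the same compartment, differed by 0.79 and Pdia6, a disulfide isomerase, by 0.62, while Atf4, the most abundant member, differed by 0.18. Of 24 immediate-early genes, 22 had a positive difference with a median of 0.38, and Atf3 passed. Egr1 differed by 1.49 ± 0.48 and Ier3 by 1.40 ± 0.33, with overlapping arrays, and Fos by 0.44 and Dusp1, the most abundant, by 0.19. Of 21 apoptosis regulators 4 were higher without overlap (Birc3, Bcl2a1, Casp8 and Cflar), against 1.92% of all genes. Casp8, which starts death receptor signaling, and Cflar, which inhibits it, differed by 0.43 and 0.47. Mcl1, the member of the highest signal, differed by 0.15. Ripk3, the kinase of necroptosis, stood outside the list and differed by 1.11 ± 0.19 (adjusted p = 0.0725, limma).

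**Figure D4:**
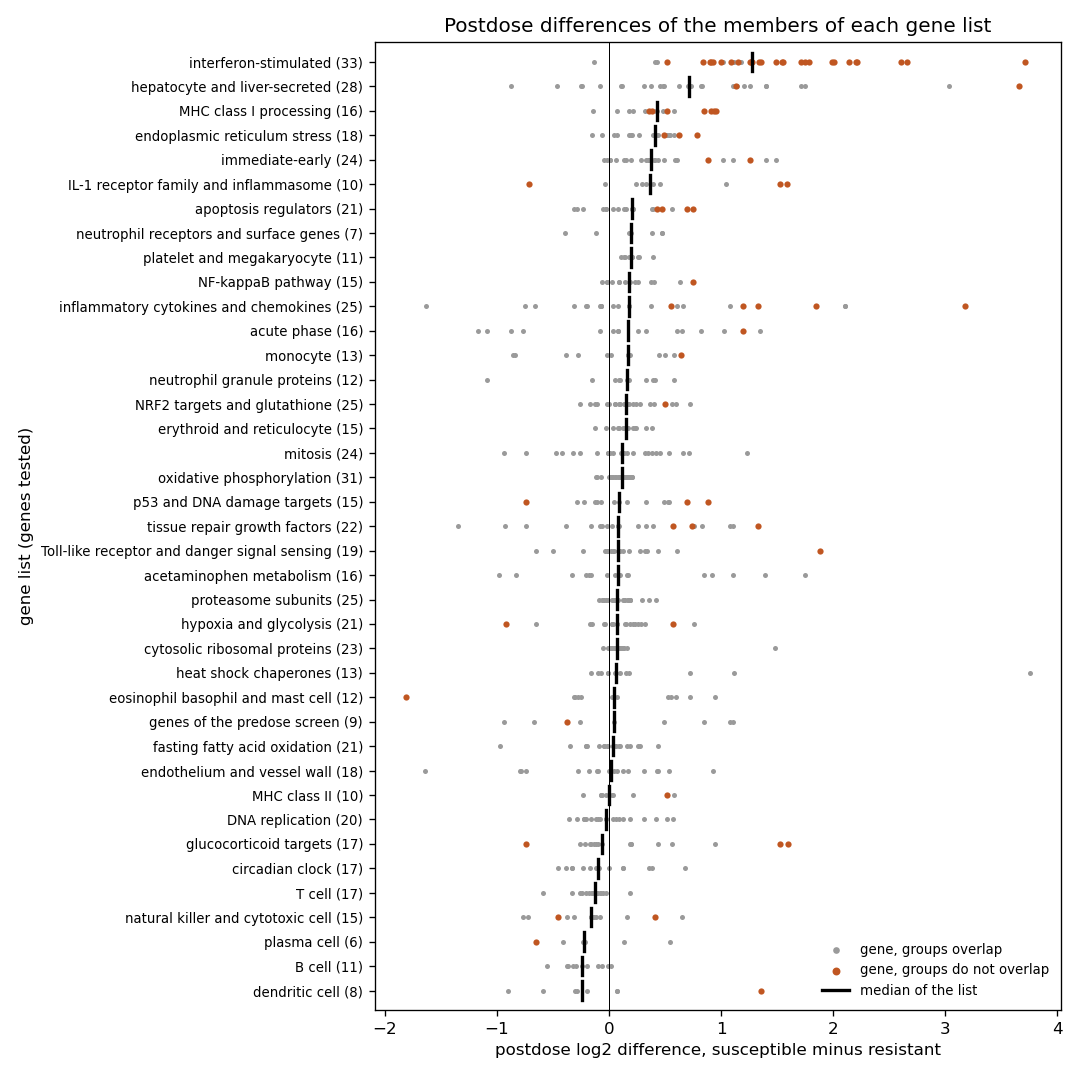
Postdose log2 difference, susceptible minus resistant, of each tested member of 39 gene lists (number of genes in parentheses). Orange points are genes whose 5 susceptible and 5 resistant arrays did not overlap, gray points the others, and black bars list medians. The interferon-stimulated list has the highest median, 1.27, and dendritic cell and B cell markers the lowest, both -0.24.

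Transcripts of hepatocyte and liver-secreted genes were found in these blood samples, most of them at low signals. Of 28 hepatocyte and liver-secreted genes tested, 23 had a positive difference, with a median of 0.72, and 0 passed (limma, 7 at an unadjusted p under 0.05). This median was 0.32 without susceptible replicate 3 and 0.92 without susceptible replicate 4. Alb (albumin) read 8.45, 5.96, 8.46, 8.69 and 8.33 in resistant and 13.25, 10.08, 13.90, 9.27 and 11.66 in susceptible rats. The arrays did not overlap, and the spread among susceptible rats was wide (SD 1.98; difference 3.66 ± 0.94, adjusted p = 0.284, limma). Rbp4, the liver's retinol carrier, differed by 3.03 with overlapping arrays, Ass1, the urea cycle enzyme, by 1.13 with its groups just apart (highest resistant 11.01, lowest susceptible 11.02), and haptoglobin (Hp), the most abundant member, by 0.82. Summed over the list, scaled signal ran from 40008 to 57429 in resistant and from 53706 to 145147 in susceptible rats. Hp alone read 25136 to 40380 and 37351 to 85426. Before dosing, log2 signals over the 10 arrays were already 13.77 to 15.05 for Hp and 10.15 to 12.70 for Ass1, and 7.26 to 9.41 for Alb. Which cells these transcripts came from was not tested. Of the 28 genes, 25 had a mean signal under the array median, and 12 lay under 7.94, the highest value of the bacterial trp control probe sets (median 6.51). Array by array, the mean of the liver list was 9.66, 8.46, 10.33, 8.22 and 8.94 in susceptible rats and 7.99 to 8.59 in resistant rats. Replicates 3 and 1 were the highest of the susceptible arrays both here and for the interferon-stimulated list, whose means were 14.99, 14.65, 15.39, 14.36 and 14.66 against 13.16 to 13.71 in resistant rats. Replicate 4 had a liver list mean within the resistant range, although its Alb, Ass1 and Hp signals lay above every resistant array, and an interferon-stimulated list mean above every resistant array. Without replicates 1 and 3, a choice made after seeing the data, the median difference was 1.04 for interferon-stimulated and 0.21 for liver genes. The part of liver transcripts in the other results was not tested.

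**Figure D5:**
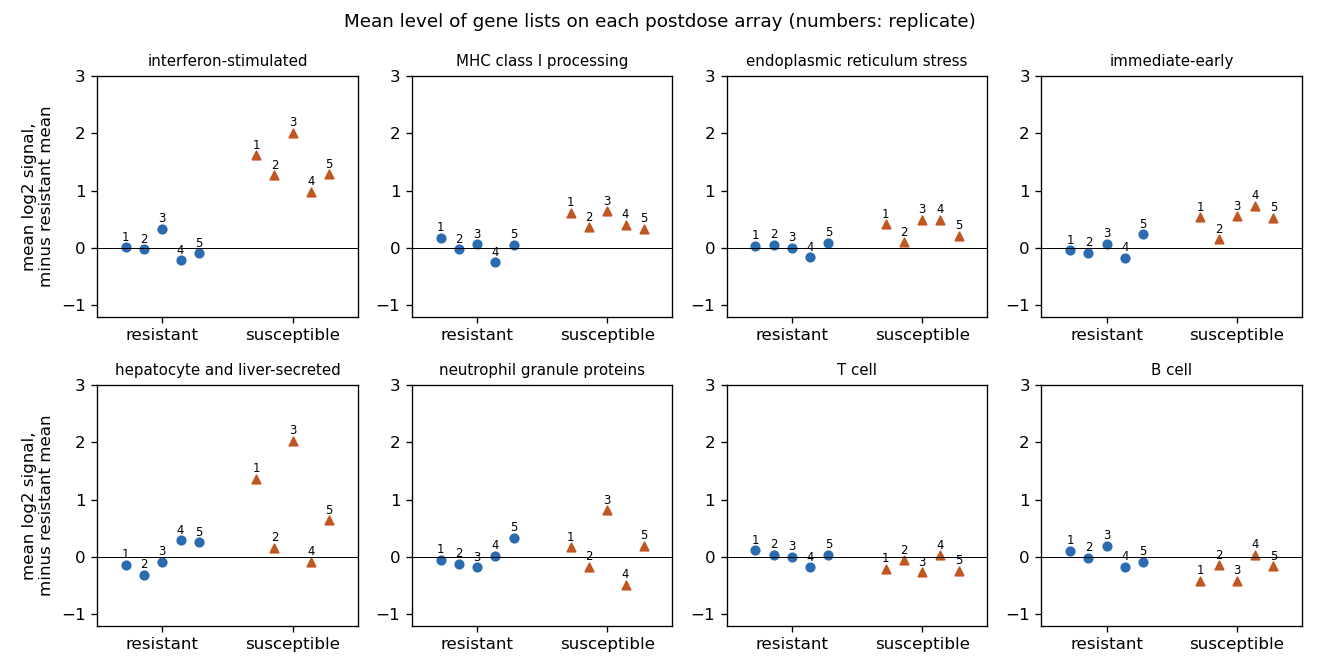
Mean log2 signal of the tested members of 8 gene lists on each postdose array, minus the mean of the 5 resistant arrays (blue circles, resistant; orange triangles, susceptible; numbers are replicates). The interferon-stimulated and class I lists separate the sub-groups on every array. The endoplasmic reticulum stress list just does so (highest resistant mean 13.97, lowest susceptible mean 13.98). The liver list lies above all resistant arrays in susceptible replicates 3, 1 and 5, and the lymphocyte lists overlap.

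The medians of the blood cell lists lay between -0.24 and 0.20, and 0 of their genes passed in any list (limma, 0 to 5 a list at an unadjusted p under 0.05). Markers of neutrophil receptors (7 tested) had a median of 0.20 (0.03 after quantile normalization), with 0.47 for Itgam, an integrin chain, and 0.20 for Lrg1. Neutrophil granule genes (12 tested) had a median of 0.16 (0.03 after quantile normalization, 0.05 without susceptible replicate 3), with 0.58 for Camp and 0.16 for S100a9, the gene of the highest signal. Without susceptible replicates 1 and 3 the granule median was -0.09. Defining granule genes of immature neutrophils (Mpo, Elane, Prtn3 and Ctsg) had no probe set named here. Summed granule signal ran from 1213390 to 1538690 in resistant and from 1347250 to 1836000 in susceptible rats. The mean of the granule list was 13.65 to 14.17 in resistant and 13.35 to 14.65 in susceptible rats. Susceptible replicates 3 and 4 were its highest and lowest, as they were for most called genes, and its part in those results was not tested. Platelet markers (11 tested) all had positive differences with a median of 0.19 (Itga2b 0.26, Pf4 0.18), which was 0.07 after quantile normalization. Erythroid markers (15 tested) had a median of 0.15 (Gata1 0.39, Hbb 0.23), which was 0.05 after quantile normalization and as low as -0.0045 with 1 array left out. For neither the platelet nor the erythroid list did a gene separate the sub-groups.

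Monocyte markers (13 tested) had a median of 0.17, which was -0.03 without susceptible replicate 5 and 0.05 after quantile normalization, and the markers differed in sign. Fcgr1a, the high-affinity IgG receptor that interferon induces, differed by 0.64 ± 0.21 without overlap, and Ctss by 0.58. Clec4a3, a C-type lectin receptor, differed by -0.84 ± 0.29 and Adgre1, the macrophage marker F4/80, by -0.86 ± 0.36, with overlapping arrays. Lyz2, the most abundant, differed by 0.17. Outside the list, Tgfbi, a matrix protein of monocytes, went from 14.71 ± 0.45 to 13.12 ± 1.13 (SD; difference -1.59, adjusted p = 0.409, limma). Of 8 dendritic cell markers, Bst2, which is also on the interferon list, was without overlap and 5 had negative differences, among them Flt3, the growth factor receptor of dendritic cells, with -0.90 ± 0.27. Itgax, the most abundant, differed by 0.07, and the median was -0.24.

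Lymphocyte markers leaned the other way. Of 17 T cell markers 16 had a negative difference, yet the median was only -0.12 (-0.27 after quantile normalization), with -0.58 for Trat1, -0.21 for Tcf7 and -0.12 for Cd3e. B cell markers (11 tested, 10 negative) had a median of -0.24, with -0.37 for Fcrla, -0.56 for the IgE receptor Fcer2, -0.19 for Cd79b and -0.06 for Cd74. Summed T cell signal ran from 788183 to 996948 in resistant and from 750302 to 933671 in susceptible rats, and B cell signal from 345345 to 471779 and from 308454 to 480231. Natural killer and cytotoxic genes (15 tested) had a median of -0.16 (-0.30 after quantile normalization, -0.04 without susceptible replicate 2). Klrd1 (CD94) read 16.10, 16.03, 15.96, 15.90 and 16.25 in resistant and 15.31, 15.26, 15.67, 15.85 and 15.87 in susceptible rats, just without overlap, and its partner Klrc1 differed by -0.77. Eomes, a transcription factor of these cells, differed by -0.73 ± 0.19 (adjusted p = 0.296, limma). In contrast Gzmb, the effector protease, differed by 0.66 and the activating receptor Klrk1 (NKG2D) by 0.41. Nkg7, a granule membrane protein, differed by -0.16 and Ccl5, the most abundant member, by -0.08. Plasma cell genes (6 tested) had a median of -0.22, with -0.65 for Prdm1, without overlap, and 0.55 for Xbp1. Eosinophil, basophil and mast cell genes (12 tested) had a median of 0.05, with -1.81 for Il5ra, whose susceptible signals lay in the range of the controls, and 0.73 for Hdc.

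Genes with lower signals in susceptible rats did not reach the threshold where they could be named. The 2 probe sets that did are unnamed here. One differed by -0.95 (10.90 to 11.16 in resistant, 9.81 to 10.32 in susceptible rats), and the other by -3.13 at a mean signal of 6.18, within the range of the trp controls. The 12 named genes of the smallest p among those with lower signals in susceptible rats and a mean signal not below the array median had adjusted p of 0.0949 to 0.278 (limma), no overlap, and differences of -0.45 to -0.97. Over the array, 106 of 14049 genes were lower without overlap (0.755%). Fmnl2, a formin that elongates actin filaments, read 13.25, 13.09, 13.32, 12.97 and 13.08 in resistant and 12.60, 12.51, 12.36, 12.70 and 12.41 in susceptible rats. Il22ra2, the soluble decoy of interleukin-22, had the largest difference of these 12, -0.97 ± 0.19, and Il1r1 followed with -0.72. Below the array median, Il5ra had a larger difference without overlap (-1.81, adjusted p = 0.197, limma). Its susceptible arrays read 5.92 to 6.96, and resistant replicates 3 and 4 read 7.33 and 7.68, all under the highest trp control value of 7.94. Rgs12, a regulator of G protein signaling, differed by -0.69, Osbpl3, a lipid transfer protein, by -0.68, and Sema4f by -0.64. Values for Dhrs3, a retinal reductase, and Mycl, a relative of Myc, were -0.63 and -0.59. Klra22, a natural killer cell receptor of a highly similar family, differed by -0.51, Pik3ip1, an inhibitor of phosphoinositide 3-kinase, by -0.50, and Cbr4 by -0.45. Selenop, the selenium carrier of plasma, differed by -0.65, while its other probe set differed by 1.24, and the other probe set of Pik3ip1 differed by 0.31, so that these genes have no single direction.

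The medians of the remaining lists stayed near that of all genes. Of the members of these lists 0 passed (limma, 0 to 6 a list at an unadjusted p under 0.05) with the exception of Sgk1 among 17 glucocorticoid targets (median -0.06). In that list Ddit4 differed by -0.74, without overlap. Acetaminophen metabolism genes (16 tested, median 0.08) held -0.98 for Sult1a1, the sulfotransferase of phenols, and 0.16 for Gstp1. Glutathione and NRF2 target genes (25 tested, median 0.15) held 0.72 for Srxn1, whose other probe sets reached -1.09, and 0.15 for Gpx1. Heat shock genes (13 tested, median 0.06) held 3.75 ± 0.96 for Hspb1 (adjusted p = 0.279, limma), whose resistant arrays lay near the controls at 6.82 ± 1.59 (SD), and -0.01 for Hsp90ab1. Acute-phase genes (16 tested) had a median of 0.17, and p53 targets (15 tested) 0.09, with 0.49 for Gadd45a. At an unadjusted p under 0.05 (limma), 4 acute-phase genes were higher and 1 lower, and 4 p53 targets higher and 2 lower. Over all genes these shares were 4.75% and 3.36%. Without overlap, 1 acute-phase gene was higher and 0 lower, and 2 p53 targets were higher and 1 lower. Hypoxia and glycolysis genes (21 tested, median 0.08) held 0.76 for Hk2 and 0.16 for Pgk1 (-0.88 for its lowest probe set). Tissue repair factors (22 tested, median 0.09) held -0.16 for Timp2, the most abundant. Of the 22, 3 were higher and 0 lower without overlap, against 1.92% and 0.755% of all genes. At an unadjusted p under 0.05 (limma), 4 were higher and 1 lower. Circadian genes (17 tested) had a median of -0.10, with -0.38 for Nr1d2 and 0.39 for Per2 (-0.18 for its other probe set). Fatty acid oxidation genes (21 tested, median 0.04) held -0.20 for Acadm and -0.04 for Txnip.

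Proliferation and housekeeping lists also had medians near 0, with 0 members past the threshold (limma, 0 to 3 a list at an unadjusted p under 0.05). DNA replication genes (20 tested, median -0.02) held 0.52 for Mcm5 and 0.13 for Pcna, and mitosis genes (24 tested, median 0.12) 1.23 for Cenpf and 0.13 for Ube2c. Cytosolic ribosomal genes (23 tested, median 0.07) held 0.16 for Rps29, the most abundant, and oxidative phosphorylation genes (31 tested, median 0.12) 0.20 for Atp5po and 0.21 for Ndufa1. In the ribosomal list, Rpl30 differed by 1.48, at a signal of 6.74 ± 0.49 (SD) in resistant rats that lay within the range of the controls. Proteasome subunits (25 tested, median 0.08) held 0.42 for Psma5 and 0.17 for Psma6. Markers of endothelium and vessel wall (18 tested) had a median of 0.02, with 0.43 for Vwf and -1.64 for Col1a2 at a low signal.

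The genes that the study drew from predose blood and screened with the postdose data were described in the same way, and since that screen used these arrays, the values are a description. The study proposes them as markers in predose blood, and it also measured them there by PCR in independent rats. Postdose differences do not test that proposal. Before dosing, the screen's probe sets differed by -2.42 (Gprin1) to 3.13 (Myl7). Of its 10 genes 9 were named on the array. Rpgrip1 had no symbol there, but the probe set of the study's screen was tested. It differed by 0.84 ± 0.56 with overlapping arrays (adjusted p = 0.755, limma). Of the 9 named genes, 0 passed postdose by the probe set of the highest signal (limma, 1 at an unadjusted p under 0.05). For Sbf1, Incenp and Bmp2 this was not the probe set of the study's screen. Sbf1, a phosphatase-like protein, read 11.40 ± 0.09 in resistant and 11.02 ± 0.14 (SD) in susceptible rats by the brighter probe set, without overlap. The probe set of the screen differed by -0.04 ± 0.30, and the 4 probe sets of the gene by -0.72 to 0.10. Incenp differed by -0.25 and, in the screen's probe set, by 0.19. Bmp2 differed by 1.10 and, in the screen's probe set, by -0.60. Myl7, Bmp2, Mmp12, Gprin1, Sox11, Hrg and S100b had mean signals of 5.74 to 9.47 in the 2 postdose sub-groups, at or below the array median, and differences of -0.94, 1.10, 1.08, 0.85, -0.67, 0.49 and 0.05 with overlapping arrays.

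By the criteria of the study's methods (the methods' t-test at a p under 0.05 and a fold change of at least 2), 336 probe sets were higher (1.1% of those tested) and 217 lower (0.712%) in susceptible rats. After Benjamini-Hochberg adjustment of that test 0 remained, with 2284 at an unadjusted p under 0.05. With only probe sets whose mean signal reached the array median, the criteria gave 122 higher and 7 lower. After median scaling, bright probe sets still differed in level between arrays of 1 sub-group. B2m read 311457 to 524966 in resistant and 408247 to 545211 in susceptible rats. By the following measures the 2 sub-groups were alike. Deposited medians were 187.41 to 223.01 in resistant and 193.33 to 204.06 in susceptible rats, the actin probe set at the 3′ end exceeded that at the 5′ end by 0.76 ± 0.10 and 0.79 ± 0.10 on the log2 scale (SD), and arrays correlated with r of 0.9764 to 0.9868 within the resistant, 0.9684 to 0.983 within the susceptible and 0.9613 to 0.979 between the sub-groups.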

How the data were processed

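RNA of blood cells was hybridized to Affymetrix arrays (Rat Genome 230 2.0), 1 per rat and time. The deposited values are linear intensity values, 1 per probe set and array. The authors' methods name ArrayTrack and a per-chip median of 1000, but the deposited medians lie far below that, and the software that made the signals is not given in the sources used here.

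From the 31099 probe sets, 57 controls were left out, the median of every array was set to 1000, values were converted to log2, and probe sets under 100 on all 10 postdose arrays were dropped. The 2 sub-groups were compared with limma 3.58.1 (lmFit, eBayes) in R 4.3.3 with Benjamini-Hochberg adjustment over 30469 probe sets and a threshold of 0.05. The difference between the postdose and predose differences came from 1 fit of all 20 arrays with 4 group means. It had no term for the rat, although the same rats were bled at both times. Exact 2-sided permutation over 252 arrangements was the alternative for single genes (smallest possible p 0.00794). The fit was tested on simulated data.

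Symbols came from the platform annotation (20826 probe sets with 1 symbol, 436 with several, 9780 with none), and none changed when looked up by Entrez ID in RefSeq (GRCr8). Named genes were the 12 of the largest difference past the threshold in each direction, filled up by smallest p among probe sets not below the array median. Of each list they were the members past the threshold, the smallest p and the highest signal. The genes of the predose screen were also named. Further genes, among them the called genes beyond the 12, were named after their values were seen. Called genes are given by the probe set of the smallest p, list members by that of the highest signal. Members and lists were chosen with earlier results of these data known, and lists carry no test.

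Alternatives were quantile normalization, values as deposited, other filters and floors, 1 probe set per gene, all 20 arrays, eBayes with trend and robust, array weights, a block for the replicate number, the t-test of the methods and leaving out each array. The number of arrays limits precision. The labels and methods give no array or extraction batch.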

Additional observations from a re-analysis of the deposited data

Results flagged for a closer look

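Among 226 sets of 5 postdose arrays of 1 sub-group (named genes and gene list means), 9 held 1 array that stood far from the other 4 by Dixon's criterion, which chance alone meets in about 1 of 20 sets. The values in parentheses are the gap to the nearest array as a share of the range. In resistant rats, replicate 3 was high for Gbp2 (15.55 on the log2 scale, share 0.777), Rnf213 (13.96, share 0.814) and Dtx3l (14.16, share 0.81), toward the susceptible arrays and still below them. Resistant replicate 5 was low for Cxcl11 (6.93, share 0.913) and resistant replicate 2 for Alb (5.96, share 0.868), both down in the range of the control probe sets. Resistant replicate 4 was low for Fcer2 (13.33, share 0.83) and for the proteasome list (mean 14.19, share 0.802), and resistant replicate 1 was high for the endothelium and vessel wall list (mean 9.54, share 0.763). In susceptible rats, replicate 2 was low for the monocyte list (mean 12.95, share 0.77).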

How the results depend on the processing

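The 21 named genes past the threshold kept their direction under every alternative run, and each stayed past it under 8 to 14 of 21 or 22 (the exact permutation test, which is unadjusted, not counted). The number of probe sets past the threshold (34, with 32 higher and 2 lower) moved more. It was 286 (253 and 33) with only probe sets at or above the array median, 277 (257 and 20) with trend and robust estimation, 63 (56 and 7) with values under 100 raised to 100 and 60 (54 and 6) with array weights. It was 48, with 4 lower, after quantile normalization, and 46, with 6 lower, with all 20 arrays, where 18 of the 34 calls were kept. Values as deposited gave 2 (2 and 0). The methods' t-test after adjustment gave 0 (0 and 0), with 2284 at an unadjusted p under 0.05. Leaving out 1 array gave 0 to 56 (0 to 50 higher, 0 to 6 lower), and leaving out susceptible replicates 1 and 3 together, added after seeing the data, gave 0 (0 and 0), with 1845 at an unadjusted p under 0.05. The count by the methods' criteria (553) was 129 (122 and 7) with the filter at the array median and 510 to 608 (297 to 384 higher, 190 to 265 lower) with 1 array left out.

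When replicate numbers entered as a block, the count was 1 (1 higher and 0 lower). Same-numbered rats of the 2 sub-groups are different animals. Their deviations correlated with r of -0.239 to 0.194, 1 of 5 over 0.1 and 1 of 5 best with its own number, so that the numbers were not taken as pairs. The count of differences between postdose and predose differences was 0 with a replicate block too.

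The medians of 14 of 39 lists, all between -0.06 and 0.17, changed sign: 7 after quantile normalization (Toll-like receptor, heat shock, MHC class II, ribosomal, oxidative phosphorylation, proteasome and fatty acid oxidation), 2 with values as deposited (endothelium and MHC class II) and 10 with 1 array left out. These 14 do not count the fit without susceptible replicates 1 and 3. In it, further lists reversed: neutrophil granule (0.16 to -0.09), acetaminophen metabolism (0.08 to -0.10), mitosis (0.12 to -0.06) and hypoxia and glycolysis (0.08 to -0.01). Genes near 0 changed sign as well. After quantile normalization these were Itgax (-0.072), Clec7a (-0.11), Pgk1 (-0.0098), Gstp1 (-0.00031), Pcna (-0.011) and Rps29 (-0.021). With 1 array left out, the ranges were -0.17 to 0.0297 for Ccl5, -0.16 to 0.028 for Cd74, -0.091 to 0.13 for Clec7a, -0.098 to 0.056 for Hsp90ab1, -0.0104 to 0.15 for Itgax, -0.16 to 0.24 for S100b, -0.11 to 0.016 for Txnip and -0.027 to 0.25 for Ube2c. Without susceptible replicates 1 and 3 the values were 0.019 for Cd74, -0.12 for Itgax, -0.19 for Clec7a and 0.035 for Hsp90ab1. The cause of these changes was not tested. With 5 arrays a side, low signals had wide spreads, and differences there were poorly resolved.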
